A study of Sorghum bicolor with 16 samples.

Results

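The 100 genes described here reached their highest transcript level at 16 DPA (days post anthesis) in the endosperm of both WT sorghum and the waxy mutant. They were chosen from the deposited expression values, out of 34129 genes. For each genotype and age the mean FPKM (sequenced fragments divided by the length of the transcript and by the mapped fragments of the library) of both libraries was taken as log2(mean + 1), and the score of a gene was its value at 16 DPA minus its highest value at the other 3 ages. Of the 34129 genes, 9022 had a mean of at least 5 FPKM at 16 DPA in both genotypes, and 1337 of those (14.8%) had a score above 0 in both. After 11 genes of a chromosome 5 block with IDs starting Sobic.005G18 or Sobic.005G19 were dropped, 1326 genes were ranked by the smaller of their 2 scores, and the first 100 were taken. The age profile therefore chose the genes. Values across age are given as a description without a test, and only the difference between the genotypes is tested.

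The libraries were made from endosperm dissected from developing seeds at 6, 11, 16 and 21 DPA. WT was the sorghum inbred BTx623, and the mutant was line 15M2-1184 of an EMS (ethyl methanesulfonate) population, homozygous for wxe, a stop-gained allele of SbGBSSI. Neither genotype carried a transgene or received a treatment. Each of the 8 groups had 2 replicates, each pooled from the middle portions of 3 panicles, which gave 16 libraries. The mutant was a single line with further EMS mutations, so that an effect of wxe cannot be told apart from an effect of the other mutations in the line.

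Granule-bound starch synthase I makes amylose, the linear glucan of starch, and endosperm without it is waxy. During grain filling the endosperm of a cereal stores starch and prolamin proteins, called kafirins in sorghum, and later dries. The genes for these products are controlled by transcription factors of several families. Among them are basic leucine zipper (bZIP) proteins, of which Opaque2 in maize is the best known activator of storage protein genes. Zinc finger homeodomain (ZF-HD) proteins are plant transcription factors that bind DNA through a homeodomain. Only these family names could be given to members, 1 gene each, because the remaining 98 IDs came without annotation in the sources used here.

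The mutated gene followed the labels. SbGBSSI (Sobic.010G022600) had 847 and 752 FPKM in the WT libraries at 6 DPA against 331 and 329 in wxe, and 8807 and 8599 at 21 DPA against 3920 and 4888. It was lower in both wxe libraries than in both WT libraries at each of the 4 ages, with log2 fold changes of -1.27, -0.67, -0.70 and -0.99 (adjusted p = 1.1e-04, 0.00691, 0.0526 and 0.00289 by limma), so that it missed the threshold at 16 DPA. SbGBSSI and SbSBEIIb (Sobic.004G163700), a branching enzyme of endosperm, were at 281 FPKM or more in every group mean. FPKM were summed to between 493357 and 1001504 per library, and the dropped chromosome 5 block held 0.553% to 1.64% of that sum at 6 DPA and 21.6% to 32.0% at the later ages. This share moves with age, and at 6 and 11 DPA it also differed between the genotypes. At 11 DPA it was 31.0% and 30.6% in the WT libraries against 21.6% and 24.9% in wxe. At 6 DPA it was 1.02% and 1.64% in WT against 0.75% and 0.553% in wxe. Its part in the values at 6 DPA and in the differences between the genotypes was not tested. Scaling the libraries by median ratios over 11855 genes left each of the 100 genes highest at 16 DPA in both genotypes. The labels number the replicates but do not pair them. The depth of a library is unknown because the table holds no read counts. In endosperm as a whole, fewer cells of a type and less RNA per cell cannot be told apart.

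Most of the 100 genes rose moderately to 16 DPA. The score ran from 0.52 to 2.16 in WT with a median of 0.72, and from 0.51 to 2.10 in wxe with a median of 0.77. On the FPKM scale the level at 16 DPA was a median of 1.69 times the level at the next highest age in WT and 1.80 times in wxe. A score of 1 or more was found in 15 genes in WT, in 21 in wxe and in 9 in both. The smaller score, which set the rank, was the WT score in 55 genes and the wxe score in 45. In each genotype, both libraries of 16 DPA lay above all 6 libraries of the other ages in 100 of 100 genes.

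**Figure D1:**
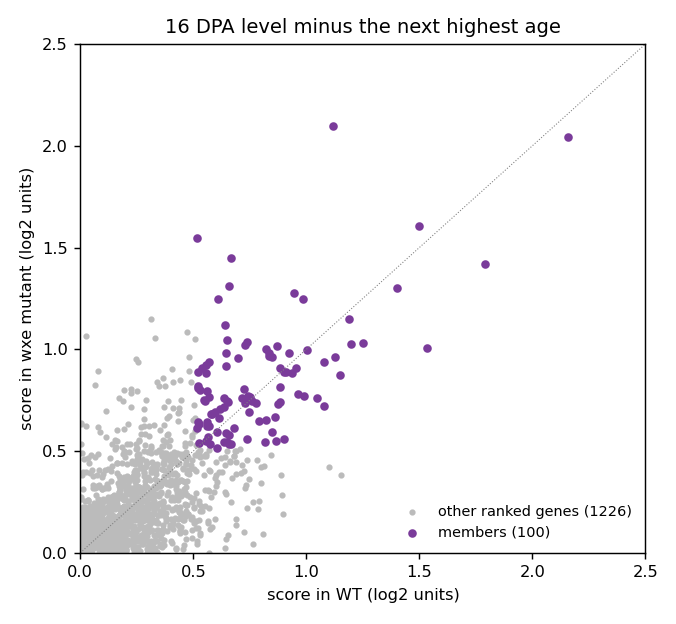
Score of each ranked gene in WT (x axis) and in wxe (y axis), in log2 units of mean FPKM + 1, with the 100 members in purple and the other ranked genes in grey. The members fill the corner above about 0.51 on both axes, and Sobic.003G326400 stands apart at 2.16 in WT and 2.04 in wxe.

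The limit of the list cut through a continuous range of scores. The last members were Sobic.002G351300 with a smaller score of 0.517, Sobic.005G007700 with 0.515 and Sobic.009G069200 with 0.514. Just outside lay Sobic.004G155400 with 0.511, Sobic.003G114100 with 0.510 and Sobic.010G118200 with 0.509. When the rule was applied to the first replicates alone, 71 of the 100 genes were among the first 100, and with the second replicates alone 73 were. The first 100 genes of the first replicates were read again in the second replicates, where 99 were highest at 16 DPA in both genotypes and the median smaller score was 0.50 after 0.64. The reverse reading gave 97 genes and a median of 0.54 after 0.65. Among all genes with at least 5 FPKM at 16 DPA in the libraries read, 13.97% of 8972 and 14.9% of 8988 were highest at that age in both genotypes.

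Levels were low in most members. At 16 DPA the median of the 100 group means was 16.0 FPKM in each genotype. At 6, 11 and 21 DPA it was 5.36, 7.39 and 8.73 FPKM in WT, and 6.03, 5.82 and 7.93 FPKM in wxe. Under 20 FPKM at 16 DPA in both genotypes were 58 genes, and over 100 FPKM in both were 6. The 2 libraries of 16 DPA differed by a median ratio of 1.10 in WT and 1.08 in wxe. A ratio over 1.5 occurred in 4 genes in WT, with 2.13 as the highest, and in 0 genes in wxe, where 1.45 was the highest.

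Most members were lowest at 6 DPA, and at 21 DPA the mean was above that of 6 DPA in 90 genes in WT and 82 in wxe. The second highest age was 21 DPA in 68 genes in WT and 69 in wxe, and in 51 genes it was 21 DPA in both. The lowest age was 6 DPA in 70 and 66 genes, 11 DPA in 25 and 29, and 21 DPA in 5 and 5. In WT the next highest age was 11 DPA in 25 genes and 6 DPA in 7, whereas in wxe it was 11 DPA in 16 and 6 DPA in 15.

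**Figure D2:**
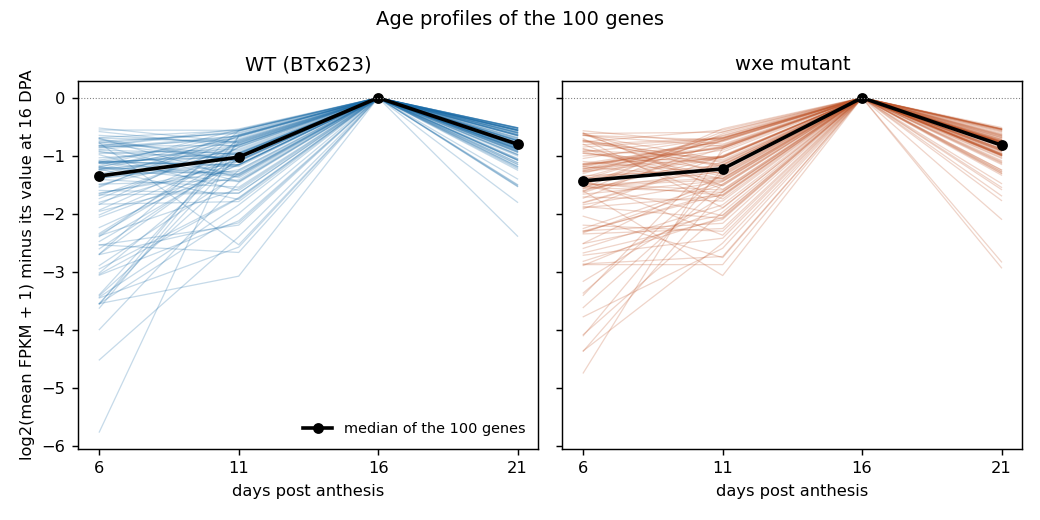
Log2(mean FPKM + 1) of each of the 100 genes minus its own value at 16 DPA, against days post anthesis, in WT on the left and wxe on the right, with the median of the 100 genes at each age in black. All lines meet at 16 DPA by construction, and at the other ages they spread most at 6 DPA and least at 21 DPA.

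The members fell into 3 groups by the shape of that rise, set after their values were seen. In 21 genes the other 3 ages lay within 1.5 times of each other in both genotypes, so that 16 DPA stood alone above a flat level. In 13 genes the level at 16 DPA was at least 10 times that at 6 DPA in both genotypes, and these rose steeply out of low early values. No gene was in both groups, and 66 were in neither.

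Among the flat genes, Sobic.001G050500 had rank 5 and no annotation. In WT its libraries had 10.7 and 9.51 FPKM at 6 DPA, 10.5 and 10.8 at 11 DPA, 29.3 and 30.9 at 16 DPA, then 12.4 and 13.0 at 21 DPA. In wxe they had 9.05 and 10.7, 10.6 and 10.7, 24.8 and 28.6, and 11.3 and 11.7 FPKM at the same ages. All 12 libraries of the other ages lay between 9.05 and 13.0 FPKM, under all 4 libraries of 16 DPA, and the genotypes overlapped at 6 and 11 DPA. Sobic.003G403700 was the most abundant flat gene. Its group means were 219 ± 44.1 (SD, n = 2), 269 ± 8.15, 391 ± 0.890 and 266 ± 17.5 FPKM in WT and 235 ± 42.4, 216 ± 41.2, 442.5 ± 2.14 and 236 ± 46.6 FPKM in wxe.

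The steep genes included the most abundant member and the ZF-HD gene. Sobic.002G367600 had 144 and 165 FPKM at 6 DPA in WT, 1105 and 1183 at 11 DPA, 1941 and 1911 at 16 DPA, then 839 and 928 at 21 DPA. In wxe it had 64.5 and 66.4, 831 and 1116, 1700 and 1868, and 1007 and 1091 FPKM. The level at 16 DPA was 12.5 times that at 6 DPA in WT and 27.3 times in wxe. At the low end, Sobic.005G123500 had 0.0776 and 0.0834 FPKM at 6 DPA in WT and 24.6 and 23.1 at 16 DPA, and in wxe 0.127 and 0 against 21.0 and 20.9. Sobic.001G450900 was listed at 0 in both wxe libraries at 6 and 11 DPA and had 5.70 and 7.01 FPKM at 16 DPA. Sobic.007G122932 was listed at 0 in both wxe libraries at 6 DPA and had 14.1 and 17.8 FPKM at 16 DPA. No ratio is given for these pairs of libraries.

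The first ranks held genes with a narrow peak. Sobic.003G326400 had 6.89 and 13.5 FPKM in WT at 16 DPA and 8.55 and 10.8 in wxe, and no other library of either genotype exceeded 1.95 FPKM. Its WT libraries were among the 4 pairs with a ratio over 1.5 at 16 DPA. Sobic.003G371100, the second rank, had 34.9 and 36.0 FPKM in WT and 25.1 and 32.6 in wxe at 16 DPA. At the other ages it ranged from 4.66 to 13.9 FPKM in WT and from 2.41 to 10.1 in wxe. Sobic.006G082200, the third, had 7.88 and 9.31 FPKM in WT and 8.72 and 6.65 in wxe, with all 12 other libraries between 0.612 and 2.32 FPKM. Ranks 4 and 7, Sobic.004G329800 and Sobic.004G302500, had higher levels beside the peak in WT, with means of 51.3 ± 12.8 and 13.4 ± 0.956 FPKM (SD, n = 2) at 16 DPA against 18.8 ± 0.594 and 5.07 ± 0.470 at 21 DPA. Sobic.003G131200, rank 8, had 7.14 ± 0.144 FPKM at 16 DPA in WT and 6.66 ± 0.0600 in wxe, and its other group means lay between 1.84 and 2.77 FPKM.

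Members were found on all 10 chromosomes, 19 of them on chromosome 1, 16 on chromosome 3, 14 on chromosome 4 and 10 on chromosome 6. Chromosome 1 held 16.8% of the genes in the table and chromosome 4 held 11.1%. Only 3 pairs of members lay within 5 places of each other in the table. Sobic.004G090200 and Sobic.004G090300 were next to each other, with 14.4 ± 2.22 and 13.9 ± 1.96 FPKM in WT at 16 DPA and 18.1 ± 2.44 and 13.6 ± 0.631 in wxe (SD, n = 2). Sobic.005G033000 and Sobic.005G033100 were also adjacent, with 17.8 ± 2.29 and 10.3 ± 0.0165 FPKM in WT. Sobic.004G192700 and Sobic.004G193000 were 3 places apart, with 26.3 ± 3.14 and 15.5 ± 1.74 FPKM in WT. How reads that align to several places were shared is not given in the sources used here, so that the levels of neighbours are uncertain if their sequences are alike.

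The study names 37 genes by ID, and 5 of them were highest at 16 DPA in both genotypes. Besides the bZIP and ZF-HD members these were SbSBEIIb, a second bZIP gene (Sobic.002G055000) and SbAGPLS1 (Sobic.003G230500), a large subunit of the enzyme that makes ADP-glucose. Their smaller scores were 0.03, 0.26 and 0.17, under the lowest score of the 100 genes. None of the 9 sugar genes, the 2 globulin genes or the 2 lipid genes named by the study was highest at 16 DPA in either genotype. Of the 8 starch genes it names 2 were highest at 16 DPA in both genotypes, and of the 12 transcription factor genes it names 3 were.

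The bZIP gene Sobic.002G054800 (rank 55) had 26.8 and 27.7 FPKM in the WT libraries at 6 DPA, 73.7 and 93.9 at 11 DPA, 207 and 211 at 16 DPA, then 139 and 129 at 21 DPA. In wxe it had 11.3 and 8.72, 65.7 and 80.8, 239 and 214, and 106 and 101.3 FPKM. The genotypes did not overlap at 6 DPA, where wxe was lower, at 16 DPA, where it was higher, or at 21 DPA, where it was lower, and they overlapped at 11 DPA. At 6 DPA its log2 fold change was -1.37 (standard error, SE, 0.14, adjusted p = 3.42e-05 by limma), and the gene was called at that age only. The log2 fold changes at 11, 16 and 21 DPA were -0.19, 0.11 and -0.36 (adjusted p = 0.319, 0.761 and 0.121 by limma). The effect at 6 DPA differed from that at 11 DPA by -1.18 and from that at 21 DPA by -1.01 on the log2 scale (adjusted p = 7.17e-04 and 0.00361 by limma's test of the difference).

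The ZF-HD gene Sobic.005G019800 (rank 50) had 7.24 and 7.44 FPKM in WT at 6 DPA and 19.9 and 22.8 in wxe. At 11 DPA it had 290 and 287 FPKM in WT against 151 and 178 in wxe, at 16 DPA 455 and 451 against 364 and 405, and at 21 DPA 269 and 238 against 182 and 189. The genotypes overlapped at no age, with wxe above WT at 6 DPA and below it at the later 3 ages. The gene rose in wxe at 6 DPA (log2 fold change 1.42, SE 0.11, adjusted p = 5.37e-06 by limma) and fell at 11 DPA (-0.81, adjusted p = 2.01e-04). The differences at 16 and 21 DPA, -0.24 and -0.45, did not pass (adjusted p = 0.295 and 0.0197 by limma, the latter under the fold threshold). Between 6 and 11 DPA the effect differed by 2.23 on the log2 scale (adjusted p = 1.92e-06 by limma).

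**Figure D3:**
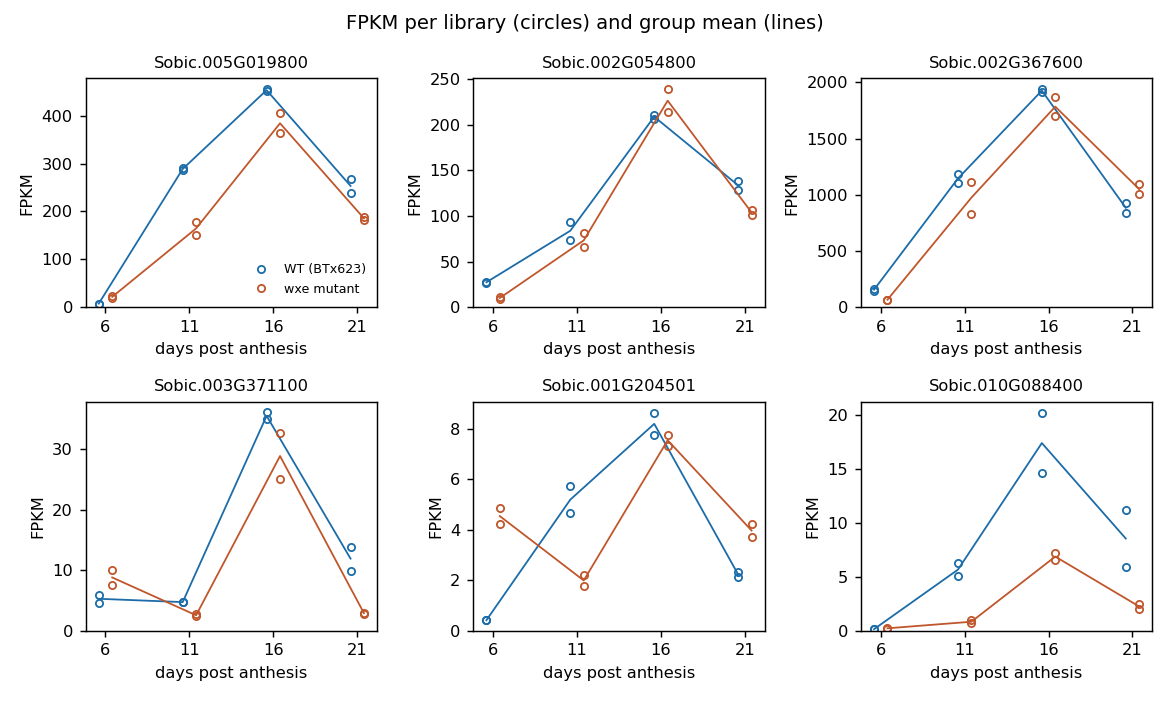
FPKM against days post anthesis for 6 members, with a circle for each library and a line through the means of both libraries, WT in blue and wxe in orange, each panel on its own linear axis. All 6 genes peak at 16 DPA in both genotypes, and the genotypes lie furthest apart at other ages, except in Sobic.010G088400, where WT is the higher at 11, 16 and 21 DPA.

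The genotypes were compared on log2(FPKM + 1) with limma in 1 model of the 8 groups, which shares its estimate of the spread across groups. A fold change on this scale understates the change of low genes. A gene was called at a Benjamini-Hochberg adjusted p below 0.05 over all genes tested at that age and a log2 fold change of 0.58 or more in size, and it was tested if its mean exceeded 1 FPKM in either genotype. With 2 libraries against 2, the smallest two-sided p of an exact permutation test is 0.333, so each call rests on the spread shared by limma. Nothing in the labels says that replicates came from separate plants beyond the pooled panicles, and p-values measure the spread between these pools only. The genes were chosen within each genotype, but on the same libraries, and a gene that must be highest at 16 DPA has its values at the other ages bounded by that level.

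At 6 DPA, 89 of the 100 genes were tested and 24 were called, 12 higher and 12 lower in wxe. Over all 16967 genes tested at that age, 19.6% were called, 14.4% higher and 5.15% lower. The share of members called lower was 13.5%, and the share called higher was also 13.5%. The median log2 fold change of the 89 genes was -0.07, against 0.01 over all genes tested. With quantile normalization 9 of 88 members were higher and 16 lower, and 12.9% and 9.61% of all genes were. Without WT replicate 2 of that age fewer members were called in each direction, and fewer of all genes were too. The other 11 members were under the limit in both genotypes.

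The largest falls at 6 DPA were in abundant members, the bZIP gene among them. Sobic.007G034900, with 515 and 533 FPKM at its WT peak, had 179 and 179 FPKM in WT at 6 DPA and 45.5 and 49.9 in wxe. It fell by 1.89 on the log2 scale (SE 0.14, adjusted p = 5.63e-06 by limma). Its libraries overlapped between the genotypes at 16 DPA, where wxe had 481 and 551 FPKM. Sobic.002G367600 fell by 1.23 at 6 DPA (SE 0.14, adjusted p = 8.14e-05 by limma), and the genotypes were apart there by more than either pair of replicates. It and Sobic.007G034900 were called at no other age. Sobic.001G423300, the fifth most abundant member with 255 FPKM at 16 DPA in each genotype, had 111 and 112 FPKM in WT and 81.6 and 83.9 in wxe at 6 DPA, a difference of -0.42 that lay under the fold threshold (adjusted p = 0.00391 by limma).

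The largest rises at 6 DPA, beside that of the ZF-HD gene, were in Sobic.001G204501 and Sobic.006G132700, both under 4 FPKM in WT. Sobic.001G204501 had 0.409 and 0.428 FPKM in WT and 4.22 and 4.86 in wxe, and rose by 1.96 on the log2 scale (SE 0.13, adjusted p = 2.01e-06 by limma). It passed the filter on low values at 6 DPA through wxe alone, which favours a rise. Among all members, 2 were tested at 6 DPA through wxe alone, 1 of them called higher. Through WT alone 2 were tested, 1 of them called lower. Sobic.006G132700 had 2.87 and 3.11 FPKM in WT and 9.76 and 19.01 in wxe, a rise of 1.88 (adjusted p = 2.31e-04 by limma), with the wxe libraries almost as far apart as the groups. Sobic.004G329800 (rank 4) rose by 1.08 from 3.86 and 3.77 FPKM to 6.54 and 12.7, and Sobic.004G302500 (rank 7) by 0.90 from 1.65 and 1.89 FPKM to 3.93 and 4.36 (adjusted p = 0.00319 and 0.00178 by limma). Without wxe replicate 2 the rise of Sobic.004G329800 was 0.65 (adjusted p = 0.0245 by limma). In these 4 genes no wxe library lay within the range of the WT libraries. Sobic.003G371100 (rank 2) rose by 0.64 (adjusted p = 0.0144 by limma), but not without WT replicate 2 (0.49, adjusted p = 0.128) or wxe replicate 2 (0.44, adjusted p = 0.143).

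**Figure D4:**
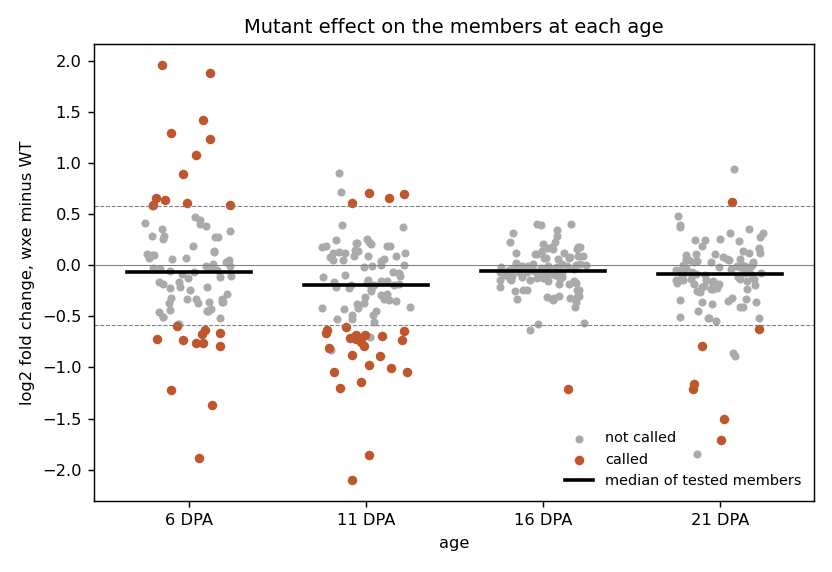
Log2 fold change of wxe against WT for each tested member at 6, 11, 16 and 21 DPA, with called genes in orange, the rest in grey, a black bar at the median and dashed lines at the fold threshold of 0.58. Called genes lie on both sides at 6 DPA and mostly below at 11 DPA, and at 16 DPA a single gene is called.

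At 11 DPA, 99 members were tested and 29 were called, 4 higher and 25 lower in wxe. Over all 15808 genes tested, 17.9% were called, 5.78% higher and 12.1% lower. Lower calls were 25.3% of the members tested, and the median log2 fold change was -0.20, against 0.01 over all genes. With 1 library of that age left out, fewer members were called, and the number over all genes moved up or down. With a filter at 5 FPKM, 68 members were tested and 19 called, and 2004 of all 10224 genes tested were called.

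The largest falls at 11 DPA were in genes that were still under 3 FPKM in wxe at that age. Sobic.001G349800 had 7.61 and 8.99 FPKM in WT and 1.10 and 1.23 in wxe, and fell by 2.10 on the log2 scale (SE 0.19, adjusted p = 2.39e-05 by limma). At 16 DPA it was not called, with WT libraries of 13.6 and 16.3 FPKM and wxe libraries of 13.4 and 13.5 (log2 fold change -0.14, adjusted p = 0.780 by limma). Sobic.010G088400 had 6.26 and 5.06 FPKM in WT and 0.719 and 0.957 in wxe at 11 DPA, a fall of 1.85 (adjusted p = 1.44e-04 by limma). Sobic.001G048900 had 5.89 and 6.12 FPKM in WT and 1.503 and 2.72 in wxe, a fall of 1.20 (adjusted p = 3.62e-04 by limma), and was also lower at 6 DPA (-0.76, adjusted p = 0.00529), though not without WT replicate 2 of 6 DPA (-0.55, adjusted p = 0.0695). At 16 DPA its libraries overlapped, with 12.3 and 12.5 FPKM in WT and 11.6 and 12.8 in wxe.

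Of the 12 steep genes tested at 11 DPA, 9 were called lower and 0 higher, with a median log2 fold change of -0.71. Of these 12 genes, 3 passed the filter on low values through WT alone and were all lower, which the filter favours, and 6 of the other 9 were lower. Among all members, 6 were tested at 11 DPA through WT alone, all of them lower, and 0 through wxe alone. Among the 21 flat genes, 1 was lower and 0 higher, with a median of -0.15. Among the other 66, 15 were lower and 4 higher, with a median of -0.19. The same groups at 6 DPA gave 1 higher and 1 lower of 3 steep genes tested, 0 higher and 1 lower of 21 flat genes, and 11 higher and 10 lower of 65 others. The groups were formed from the same libraries. The levels at 6, 11 and 21 DPA entered the definition of the flat genes, and that at 6 DPA the definition of the steep genes. These counts are therefore a description.

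The genes higher in wxe at 11 DPA were 4. Sobic.007G044100 had 17.1 and 14.7 FPKM in WT and 24.0 and 29.1 in wxe, a rise of 0.70 on the log2 scale (adjusted p = 0.00137 by limma), which was under the fold threshold without wxe replicate 2 (0.57). Sobic.007G076500 had 2.43 and 1.94 FPKM against 4.53 and 3.86, a rise of 0.71 (adjusted p = 0.0107 by limma), which did not pass without WT replicate 2 (0.60, adjusted p = 0.0853) or wxe replicate 1 (0.61, adjusted p = 0.0779). Sobic.009G069200, the last member, rose by 0.61 from 9.17 and 7.13 FPKM to 14.3 and 11.7 (adjusted p = 0.0106 by limma), but not without WT replicate 2 (0.45) or wxe replicate 1 (0.48). Sobic.001G316700 had 10.4 and 9.68 FPKM in WT and 15.6 and 17.2 in wxe. Its rise of 0.66 (adjusted p = 0.0300 by limma) passed in none of the 4 fits that left out a library of 11 DPA (0.59 to 0.72).

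At the peak itself few differences were called. The rule required at least 5 FPKM and the highest level at 16 DPA in both genotypes, which disfavours genes much lower in 1 genotype there. Over all genes, a mean above 1 FPKM in either genotype sufficed for the test. At 16 DPA all 100 genes were tested and 1 was called, lower in wxe, and over all 14990 genes 0.987% were called, 0.674% higher and 0.314% lower. The median log2 fold change of the members was -0.05, against -0.02 over all genes. By value, 34 of the 100 members were above 0 at 16 DPA, against 47.1% of all genes tested. The gene called was Sobic.010G088400, with 14.6 and 20.2 FPKM in WT and 6.57 and 7.18 in wxe (log2 fold change -1.21, SE 0.23, adjusted p = 0.0282 by limma). The groups did not overlap, but the call was lost without WT replicate 2 (-0.99, adjusted p = 0.193), without wxe replicate 1 (-1.15, adjusted p = 0.146) and without wxe replicate 2 (-1.26, adjusted p = 0.157, all by limma). It was also lost with a pseudocount of 0.1 (adjusted p = 0.0614) or no filter (adjusted p = 0.0995), again by limma.

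At 21 DPA, 7 of the 100 members were called, 1 higher and 6 lower in wxe, and over all 14966 genes tested 6.51% were called, 3.58% higher and 2.93% lower. The median log2 fold change was -0.09, against 0.01 over all genes. Sobic.003G371100 had 13.9 and 9.94 FPKM in WT and 2.83 and 2.97 in wxe, a fall of 1.71 (SE 0.17, adjusted p = 3.21e-04 by limma). At 11 DPA it had 2.41 and 2.70 FPKM in wxe and 4.74 and 4.73 in WT, so that its level at 21 DPA was near that of 11 DPA in wxe and above it in WT. Sobic.010G088400 had 5.88 and 11.2 FPKM in WT and 1.98 and 2.52 in wxe, a fall of 1.5 (adjusted p = 0.00243 by limma).

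Sobic.002G351300 had 4.12 and 4.83 FPKM in WT and 1.31 and 1.42 in wxe at 21 DPA, a fall of 1.21 (adjusted p = 1.69e-04 by limma), and was also lower at 11 DPA (-1.04, adjusted p = 7.0e-05). Sobic.005G123500 (rank 6) had 11.0 and 9.91 FPKM in WT and 4.44 and 3.82 in wxe, a fall of 1.16 (adjusted p = 3.48e-04 by limma). These 4 genes kept the call at 21 DPA without any single library of that age. Sobic.001G349800 was called lower too (-0.79, adjusted p = 0.0189 by limma), but not without WT replicate 2 (-0.59, adjusted p = 0.123) or wxe replicate 1 (-0.55, adjusted p = 0.132). Sobic.006G122400 was called lower (-0.62, adjusted p = 0.0239 by limma), but not without WT replicate 2 (-0.51), wxe replicate 1 (-0.71, adjusted p = 0.0524) or wxe replicate 2 (-0.54). Sobic.001G204501, the gene called higher, had 2.34 and 2.12 FPKM in WT and 3.71 and 4.24 in wxe (0.62, adjusted p = 0.00998 by limma), and lost the call without WT replicate 2 (0.57) or wxe replicate 2 (0.54). Of the 7 genes, 4 belonged to the 13 steep genes and 0 to the 21 flat ones. The level at 21 DPA entered the definition of the flat genes, which disfavours a call there, so these counts are a description.

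Sobic.004G205900, named after its values were seen, had the lowest fold change of all members at 21 DPA, -1.85, and was not called (adjusted p = 0.168 by limma). It had 11.4 and 5.17 FPKM in WT and 0 and 4.90 FPKM in wxe, and no library of wxe reached a WT library.

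Effects of wxe in opposite directions at 6 and 11 DPA were called in few members. Of the 89 members tested at both ages, 7 were called higher at 6 DPA and lower at 11 DPA, and among the 15072 genes tested at both ages 5.12% were. The opposite turn was called in 1 member (0.59% of all genes), lower at both ages in 2 (0.484%), and higher at both in 0 (0.471%). By value alone, 30 of the 89 were higher at 6 and lower at 11 DPA, 26 lower and then higher, 26 lower at both and 7 higher at both. The difference between the effects at 6 and 11 DPA was itself called in 48 of the 100 members, in 30 more positive at 6 DPA and in 18 more negative, against 40.1% of all 18349 fitted genes (22.9% and 17.2%). With quantile normalization it was called in 50 members, 24 more positive and 26 more negative, against 18.6% and 25.8% of all genes, and the median difference over all genes moved from 0.01 to -0.15.

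The genes that rose and then fell were the ZF-HD gene Sobic.005G019800, Sobic.003G371100, Sobic.002G043500, Sobic.003G311000, Sobic.001G204501, Sobic.006G169400 and Sobic.003G108600. In Sobic.001G204501, tested at 6 DPA through wxe alone, the order of the early ages was inverted. WT had 0.409 and 0.428 FPKM at 6 DPA and 5.72 and 4.67 at 11 DPA, whereas wxe had 4.22 and 4.86 at 6 DPA and 1.79 and 2.20 at 11 DPA. Its effects were 1.96 and -1.05 and differed by 3.01 on the log2 scale (SE 0.18, adjusted p = 1.33e-06 by limma). Sobic.006G169400 had 2.27 and 1.76 FPKM in WT and 4.78 and 8.39 in wxe at 6 DPA, and 15.0 and 18.2 against 7.52 and 8.01 at 11 DPA. Its effects were 1.30 and -1.0 and differed by 2.30 (adjusted p = 9.2e-05 by limma). Neither gene was called at 16 DPA, where the genotypes overlapped in Sobic.001G204501 (7.75 and 8.65 against 7.76 and 7.34 FPKM) and lay apart in Sobic.006G169400 (29.0 and 39.4 against 27.1 and 27.4 FPKM).

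Sobic.003G108600 had 6.12 and 6.67 FPKM in WT and 8.61 and 11.9 in wxe at 6 DPA (log2 fold change 0.59), and 23.6 and 21.4 against 10.04 and 9.22 at 11 DPA (-1.14, adjusted p = 2.67e-04 by limma). Sobic.002G043500 and Sobic.003G311000 rose by 0.60 and 0.61 at 6 DPA (adjusted p = 0.00173 and 0.0170 by limma) and fell by 0.64 and 0.61 at 11 DPA (adjusted p = 0.00125 and 0.0189), close to the fold threshold. Of the 4 fits that left out a library of the age, 2 kept each call of Sobic.002G043500, 1 kept each call of Sobic.003G311000, and 2 kept the rise of Sobic.003G108600, whose fall was kept in all 4. Without wxe replicate 2 of 6 DPA the rises of Sobic.003G311000 and Sobic.003G108600 were each 0.38. In Sobic.003G371100 the fall at 11 DPA (-0.69, adjusted p = 0.0102 by limma) was kept without wxe replicate 2 and missed the threshold without WT replicate 1, WT replicate 2 or wxe replicate 1 (adjusted p = 0.0517, 0.0514 and 0.0656). The opposite turn was that of Sobic.001G316700, with 11.1 and 12.6 FPKM in WT and 10.1 and 4.97 in wxe at 6 DPA (-0.66, adjusted p = 0.0281 by limma). This fall was -0.21 (adjusted p = 0.250) without wxe replicate 2. It was not called without either WT library of 6 DPA (adjusted p = 0.0671 and 0.152 by limma).

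**Figure D5:**
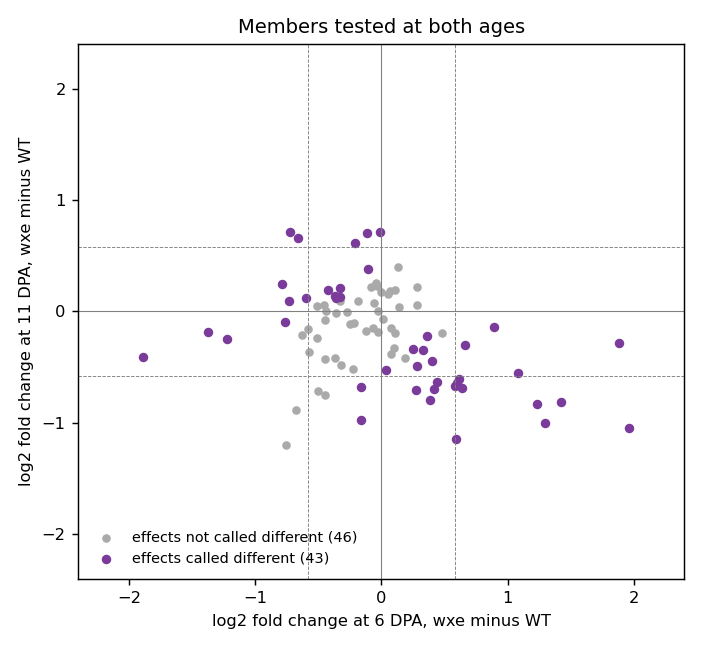
Log2 fold change of wxe against WT at 6 DPA (x axis) and at 11 DPA (y axis) for the 89 members tested at both ages, with dashed lines at the fold threshold of 0.58 and in purple the 43 genes whose effects at both ages were called different. The quadrant of genes higher at 6 DPA and lower at 11 DPA holds 30 genes, and that of genes higher at both holds 7.

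Over the 4 ages together, 5 members were called for the average effect of wxe, all lower, against 1.63% of all genes (0.845% higher and 0.785% lower). They were Sobic.010G088400 (-1.12), Sobic.006G122400 (-0.69), Sobic.001G349800 (-0.67), Sobic.007G034900 (-0.64) and Sobic.002G351300 (-0.63), with adjusted p from 5.64e-05 to 8.3e-04 in limma. By group means, Sobic.010G088400, Sobic.001G349800 and Sobic.002G351300 were under 1 FPKM in both genotypes at 6 DPA, so that their averages rest mainly on the later ages. Among single ages, Sobic.007G034900 was called at 6 DPA only. Without wxe replicate 1 of 11 DPA, Sobic.007G034900 came to -0.58, just under the fold threshold. Over all ages, the median average effect of the 100 genes was -0.09, against 0.02 over all genes. Of the 100, 72 were below 0 and 28 above, against 53.8% of all genes above 0. Sobic.006G122400 had 24.5 and 29.5 FPKM in WT and 16.9 and 16.1 in wxe at 6 DPA, 50.7 and 49.5 against 21.8 and 32.7 at 11 DPA, 87.4 and 91.0 against 60.2 and 60.01 at 16 DPA, and 42.3 and 49.8 against 31.4 and 27.6 at 21 DPA. No wxe library reached a WT library of the same age, and the log2 fold changes were -0.67, -0.88, -0.56 and -0.62. That at 16 DPA missed both thresholds, and that at 6 DPA was not called without WT replicate 2 (-0.54, adjusted p = 0.0666 by limma).

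The effect at 6 DPA differed from that at 21 DPA in 28 members, in 18 more positive at 6 DPA and in 10 more negative, against 25% of all genes (14.8% and 10.2%). The most positive were Sobic.003G371100 (2.35 on the log2 scale, adjusted p = 9.6e-05 by limma), Sobic.001G098600 (2.09, adjusted p = 0.00523) and the ZF-HD gene Sobic.005G019800 (1.87, adjusted p = 2.04e-05). Sobic.001G098600, whose rise of 1.23 at 6 DPA was not called without WT replicate 2 or wxe replicate 2, had 8.82 and 6.17 FPKM in WT and 14.2 and 24.7 in wxe at 6 DPA, and 45.9 and 68.8 against 24.0 and 39.0 at 21 DPA. The most negative were Sobic.007G034900 (-1.65, adjusted p = 2.16e-04 by limma), Sobic.002G367600 (-1.47, adjusted p = 4.71e-04) and Sobic.008G116100 (-1.24, adjusted p = 0.00145). Sobic.008G116100 had 1.13 and 1.81 FPKM in WT and 0.486 and 0.402 in wxe at 6 DPA, and 4.86 and 6.19 against 7.92 and 8.18 at 21 DPA.

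Over the single ages, 44 of the 100 members were called at 1 age or more and 56 at none, and 30.9% of the 18349 genes tested at any age were called. At 6, 11, 16 and 21 DPA 89, 99, 100 and 100 members were tested. Of the 18349 genes, 16967, 15808, 14990 and 14966 were. Members thus had more chances of a call at the later 3 ages. At exactly 1 age 31 members were called (23.3% of all genes), at 2 ages 9 (6.52%), at 3 ages 4 (1%) and at all ages 0. The genes called at 3 ages were Sobic.003G371100 and Sobic.001G204501, each with a change of direction, and Sobic.006G122400 and Sobic.010G088400, lower each time.

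The study names 12 transcription factor genes by ID, a part of those it compared, and the bZIP and ZF-HD members are among them. Of these 12 genes, 3 were called higher and 8 lower at 6 DPA, against 14.4% and 5.15% of all genes. At 11 DPA 0 were higher and 6 lower, against 5.78% and 12.1%. At 16 DPA as at 21 DPA, 1 was higher and 0 lower of 11 tested. Over all genes, 0.674% and 0.314% were at 16 DPA, and 3.58% and 2.93% at 21 DPA. The study named each of these genes as lower or higher in wxe on the same libraries, so that they are no independent evidence of direction. The second bZIP gene, Sobic.002G055000, had 17.7 and 17.4 FPKM in WT and 9.69 and 7.33 in wxe at 6 DPA, and fell by 0.97 on the log2 scale (adjusted p = 7.93e-05 by limma). At 16 DPA it had 150 and 148 FPKM in WT against 122 and 127 in wxe, a difference of -0.26 that was not called (adjusted p = 0.300 by limma).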

How the data were processed

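RNA from dissected endosperm was sequenced in 16 libraries. The authors trimmed reads, aligned them and deposited 1 table of FPKM values per gene and library. Their processing notes name FastQC, Trimmomatic, STAR and Cufflinks, and versions and the handling of reads aligned to several places are not given in the sources used here. The table holds no counts, so that depth is unknown and no counting interval can be given. FPKM were used as deposited.

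Group means of 2 libraries served the choice of genes. The genotypes were compared with limma 3.58.1 (R 4.3.3) on log2(FPKM + 1), in 1 model of 8 groups with a variance trend and 8 residual degrees of freedom, on genes that exceeded a mean of 1 FPKM in WT or wxe at the age in question. Differences between ages in the effect and the average effect were contrasts of that model over 18349 genes above the limit at any age, and the difference contrasts were called on the adjusted p alone. Scripts in Python 3.11.15 were tested on simulated data. Alternatives were a pseudocount of 0.1, no filter, a filter at 5 FPKM, each age alone, the replicate number as a block, median-ratio and quantile scaling, the ratio of means for the fold threshold, no variance trend, and each library left out.

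Genes were named if they held the 10 highest ranks, ranks 98 to 100 or the 3 ranks outside, the 5 highest levels at 16 DPA, up to 3 of the largest calls in each direction per comparison without overlap of the genotypes, adjacent IDs or an ID the study names. Genes outside this rule, among them members that lost or turned a call and the examples of shape, were chosen after their values were seen. The members and lists were chosen with earlier results of these data known. The reference table matched 0 of the gene IDs, so that lists by gene description and markers of other seed tissues were not analysed, and the dissection was not checked against such markers.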

Additional observations from a re-analysis of the deposited data

Results flagged for a closer look

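The effect of wxe differed between ages by limma's test of the difference, on the log2 scale and adjusted over 18349 genes, in the 12 cases named here. Between 6 and 21 DPA the difference was 2.35 in Sobic.003G371100 (adjusted p = 9.6e-05), 2.09 in Sobic.001G098600 (0.00523) and 1.87 in the ZF-HD gene Sobic.005G019800 (2.04e-05), each more positive at 6 DPA. It was -1.65 in Sobic.007G034900 (2.16e-04), -1.47 in Sobic.002G367600 (4.71e-04) and -1.24 in Sobic.008G116100 (0.00145), each more negative at 6 DPA.

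Between 6 and 11 DPA the difference was 3.01 in Sobic.001G204501 (adjusted p = 1.33e-06 by limma), 2.47 in Sobic.001G349800 (3.37e-05) and 2.30 in Sobic.006G169400 (9.2e-05). In the other direction it was -1.48 in Sobic.007G034900 (1.75e-04), -1.44 in Sobic.008G017900 (0.00792) and -1.32 in Sobic.001G316700 (0.00396). Without wxe replicate 2 of 6 DPA the last 2 came to -0.89 and -0.87 (adjusted p = 0.00632 and 0.00181 by limma), and the effect of Sobic.008G017900 at 6 DPA went from -0.72 to -0.18 (adjusted p = 0.472). Sobic.001G349800 was under 1 FPKM in both genotypes at 6 DPA by its group means, so that its difference rests on the fall at 11 DPA.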

How the results depend on the processing

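Counts of members called changed by more than 1.5 times, or fell to 0, under few settings. At 6 DPA 12 were called with each age alone, and 1909 of all 16967 genes were. At 11 DPA 19 were called with a filter at 5 FPKM, where 68 were tested, and 2004 of all 10224 genes were. At 16 DPA 0 were called with a pseudocount of 0.1 (141 of all 14990 genes) and 0 with no filter (69 of all 34129). For the average effect 9 were called with a pseudocount of 0.1 (769 of all 18349 genes) and 9 with the threshold on the ratio of means (1051 of all 18349). With 1 library left out, the calls ranged from 14 to 27 at 6 DPA (14 without WT replicate 2), from 18 to 27 at 11 DPA, from 0 to 1 at 16 DPA (0 without WT replicate 2 or either wxe library), from 5 to 9 at 21 DPA, and from 4 to 6 for the average. Where this left 1 library in a group, that library was taken to vary like the other groups. Calls over all genes changed in number in these fits too, for the average effect and the differences between ages as well. Without a library of the age they fell in every fit at 16 and 21 DPA. At 6 and 11 DPA they moved up or down. The ranges of members called, here and for the differences, therefore cannot be read as a property of the members. The difference between 6 and 11 DPA was called in 35 to 49 members, and that between 6 and 21 DPA in 20 to 34. The average effect of Sobic.005G019800, -0.02 and not called, was 0.0054 with a pseudocount of 0.1 and ranged from -0.049 to 0.0097 with 1 library left out. Fits with a library left out covered calls of members named by rule and all comparisons of SbGBSSI and the bZIP and ZF-HD members. The outcome stayed the same in 955, a call was lost in 110 and the direction turned in 3. The 955 include comparisons not called in the main fit and libraries of ages outside a difference contrast.

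The labels do not say whether equal replicate numbers of WT and wxe were collected together, and the replicate differences cannot decide it. Replicate differences of WT and wxe correlated over 18349 genes by -0.278, 0.214, -0.0135 and 0.112 at 6, 11, 16 and 21 DPA. With the replicate block 25, 31, 1 and 9 members were called at these ages. For the average effect 5 members were called, for the difference between 6 and 11 DPA 49, and for that between 6 and 21 DPA 31. Over all genes, 3404 of 16967, 2951 of 15808, 208 of 14990 and 1072 of 14966 were called at these ages. Of 18349 genes, 302 were called for the average effect, 7928 for the first difference and 5130 for the second.

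The list itself kept 91 of 100 genes with a pseudocount of 0.1, 91 with median-ratio and 87 with quantile scaling, 75 with a minimum of 1 FPKM and 71 with one of 10 FPKM, and 82 to 100 with 1 library left out. Depth limits the low members, whose number of reads is unknown.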
